A study of Mus musculus with 6 samples.

Results

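Potassium channel subunits were followed in cultured ventricular cardiomyocytes of neonatal mice given an inhibitor at either of 2 levels of the Hedgehog pathway. The members were every gene of the count table whose symbol begins with Kcn, further letters and a digit, with the sulfonylurea receptor genes Abcc8 and Abcc9 added. This name rule found 100 of the 55487 genes in the table, and 5 of the 100 are antisense or other noncoding RNAs that encode no subunit. The cells came from hearts of wild-type pups at postnatal day 1 or 2. Fibroblasts had been depleted with CD90 antibodies, and the cells were plated at 70000 per well. After 12 h in culture they received one of 3 treatments, which lasted 48 h. These were cyclopamine (5 µg/ml), a blocker of the membrane protein Smoothened, GANT61 (3 µM), a blocker of the GLI transcription factors, and the solvent DMSO as control. The doses are in different units, so the inhibitors were set side by side and not matched. Each group has 2 samples in the labels and 1 column in the count table, and the labels do not tie that column to a replicate or say whether it is a pool. Hence no difference between groups below has a replicate check, and all intervals cover counting error only.

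Potassium channels set the resting potential of the cardiomyocyte and end its action potential. Inward rectifiers (Kir, genes Kcnj) and K2P channels (Kcnk) hold the resting potential, voltage-gated channels (Kv, genes Kcna to Kcnd, Kcnq and Kcnh) carry the repolarizing currents, and small conductance channels (SK, Kcnn) open with calcium. Most of these pores work with accessory subunits that change their gating or their number at the membrane, and the set of subunits is known to change as the mouse heart matures after birth.

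Column totals were 36661845 (DMSO), 38966515 (cyclopamine) and 35461530 (GANT61). Of the 100 members 71 had a count in some library and 29 had none in any. A gene was compared when its mean over the libraries reached 1 CPM, a count scaled to library size, which 12554 genes and 30 members did. The member nearest above this limit had a mean of 1.33 CPM and the nearest below, Kcnk6, had 0.864 CPM. No member passed through 1 library alone. Of the 30, 2 were below 1 CPM in some library, Kcne4 at 0.759 and Kcnd2 at 0.948, both in DMSO alone. They passed through the inhibitor libraries, so their higher calls below are not independent of the limit. Counts were scaled by TMM, a trimmed mean of ratios, and log2 fold changes were taken on log2 CPM with a prior count of 2, which pulls low genes toward 0. The calls made by size, higher or lower, needed a difference of 1.5-fold or more, a log2 fold change of 0.585, and required that the exact 95% counting interval of the ratio exclude no difference.

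Cardiomyocyte markers led the libraries: 9 of 9 were measured, and their summed level was 58132 CPM in DMSO, 56195 in cyclopamine and 48018 in GANT61. Markers of other cells were present and moved between libraries. The 6 epicardial and mesothelial markers summed to 11.1, 15.9 and 59.3 CPM, and all 6 were higher by size in GANT61. The 7 fibroblast markers summed to 885, 701 and 583 CPM, the 7 smooth muscle and pericyte markers to 1077, 740 and 630, the 5 endothelial markers to 76.1, 73.1 and 63.3, the 6 macrophage markers to 10.1, 15.5 and 8.22, and the 8 neuronal and Schwann cell markers to 117, 85.1 and 93.3. Some markers of these lists were near 0. The pericyte gene Rgs5 had 2, 0 and 6 counts, the neuronal gene Snap25 had 0 in each, and the macrophage gene Itgam had 3, 6 and 0. Others of the same lists had more, such as Pdgfrb (1073, 1133 and 916), Uchl1 (3299, 2337 and 2845) and Lyz2 (274, 465 and 163). Of the 3 erythroid markers both globin genes had 0 throughout. Of the 5 endothelial markers 0 were higher and 2 lower by size with GANT61. The sums hide members that differ in direction. With GANT61 the fibroblast genes Col1a1 and Thy1 were lower by size and Dcn higher, at -0.69, -1.29 and 1.05, and the macrophage genes Lyz2 and Csf1r stood at -0.69 and 1.43. What part these cells have in the values below was not tested, and in bulk RNA fewer cells of a type and less RNA per cell cannot be told apart.

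Levels were compared between genes as TPM, which divides counts by the exon length of the gene. In DMSO the highest member was Kcnh2, the pore subunit of the rapid delayed rectifier, at 107 TPM (Poisson interval 104 to 110). Kcng2, which encodes Kv6.2, a subunit that forms no channel alone and modifies other Kv channels, followed at 93.5 TPM. Below them stood Kcnq1, the pore subunit of the slow delayed rectifier, at 53.7 TPM, its accessory partner Kcne1 at 46.1 and Abcc9, which encodes the sulfonylurea receptor SUR2, at 38.9. The intervals of these 5 genes did not meet, and together they made 66.8% of the summed level of all members. Kcnj5, which encodes GIRK4 of the acetylcholine-gated channel, and Kcnj11, which encodes the ATP-sensitive pore Kir6.2, came next at 34.0 and 32.8 TPM, and their intervals overlapped. A gap separated these 7 from the remaining members, the highest of which, Kcnj14, had 10.6 TPM, and the same 7 led each library when the longest transcript was taken as the length, though their order changed. In both inhibitor libraries Kcng2 was the highest member, at 99.0 TPM in cyclopamine and 87.0 in GANT61, where the interval of Kcne1 at 82.4 met its own, while Kcnh2 was at 78.3 in cyclopamine and 48.6 in GANT61.

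**Figure D1:**
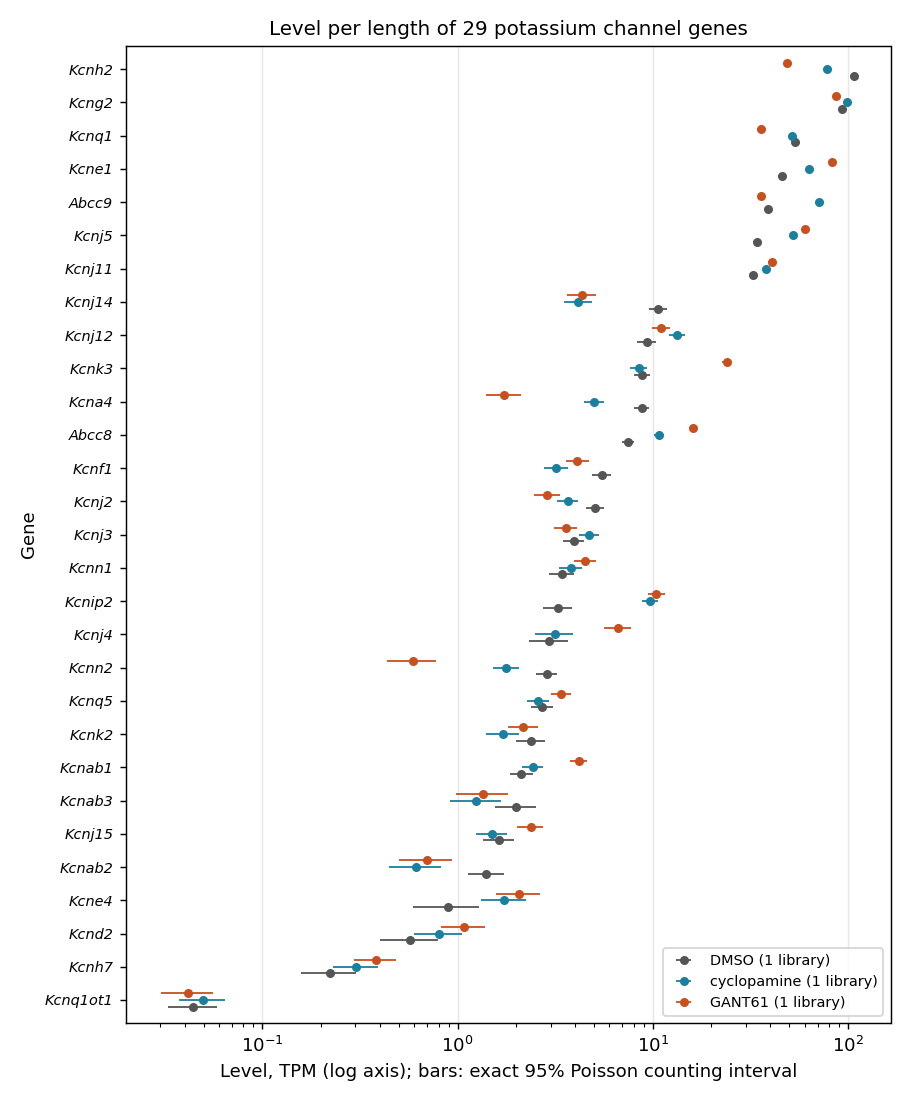
Level of 29 of the 30 compared members in TPM (log axis), 1 point per library in grey for DMSO, blue for cyclopamine and orange for GANT61, with exact 95% Poisson counting intervals, ordered by the DMSO level. The 7 highest members stand apart from the others in DMSO, with Kcnh2 first at 107 TPM and Kcnj11 seventh at 32.8.

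In cyclopamine against DMSO, which asked about inhibition at Smoothened, 4 of the 30 members were higher by size and 6 lower. Over all 12554 genes 2.91% were higher and 5.42% lower by this rule, against 13.3% and 20% of the members. In GANT61 against DMSO, which asked about inhibition at the GLI factors, 10 members were higher by size and 7 lower, or 33.3% and 23.3%, against 7.77% and 11.1% of all genes. The higher members include Kcne4 in both comparisons and Kcnd2 in GANT61, which passed the limit only through the inhibitor libraries. The median log2 fold change of the members was 0.11 in cyclopamine and 0.06 in GANT61, beside 0.00 and 0.02 over all genes, and members stood on both sides of 0. Both comparisons use the same DMSO library, so each is given by its own values.

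**Figure D2:**
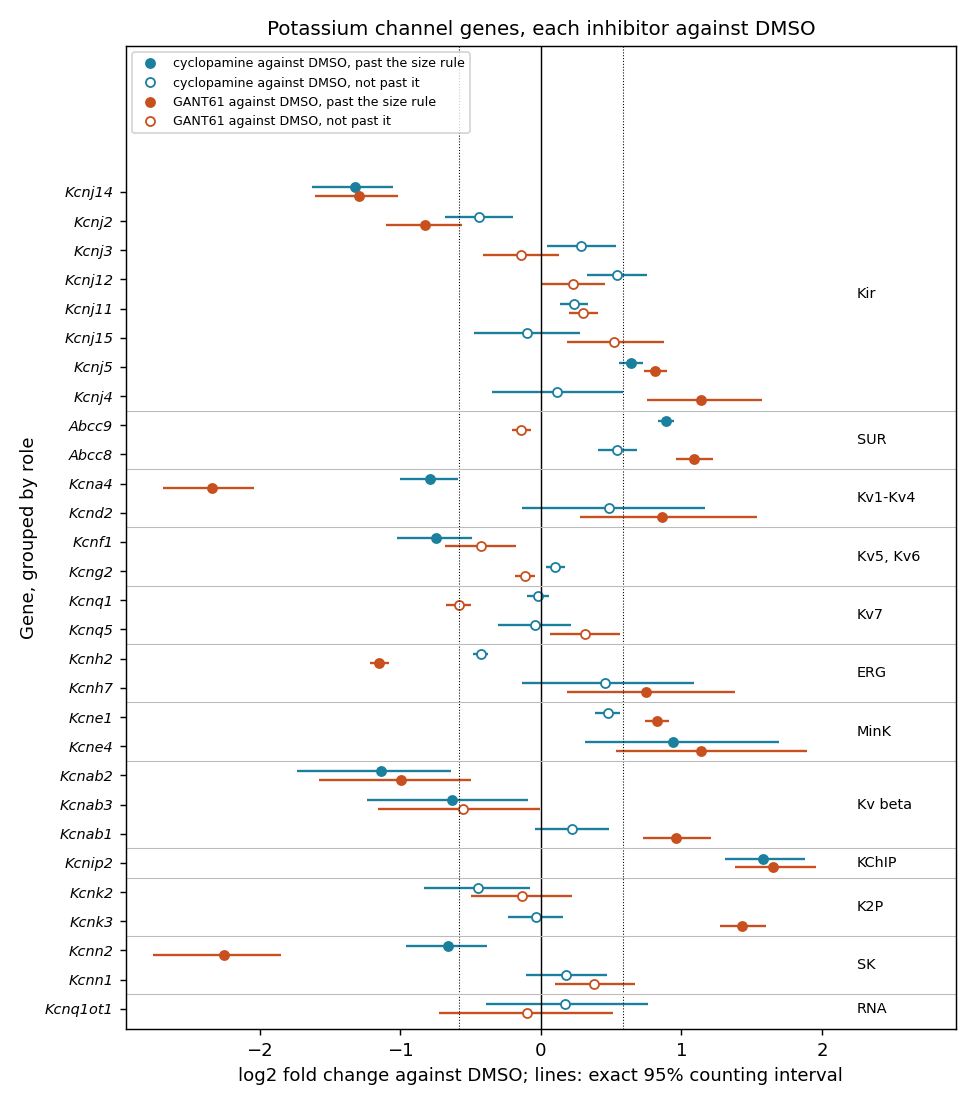
log2 fold change against DMSO for 29 of the 30 compared members, grouped by role, in blue for cyclopamine and orange for GANT61, 1 library per group. Lines are exact 95% counting intervals, filled points passed the size rule, dotted lines mark 1.5-fold, and Kcna4 and Kcnn2 lie farthest to the left in GANT61 at -2.34 and -2.25.

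**Figure D3:**
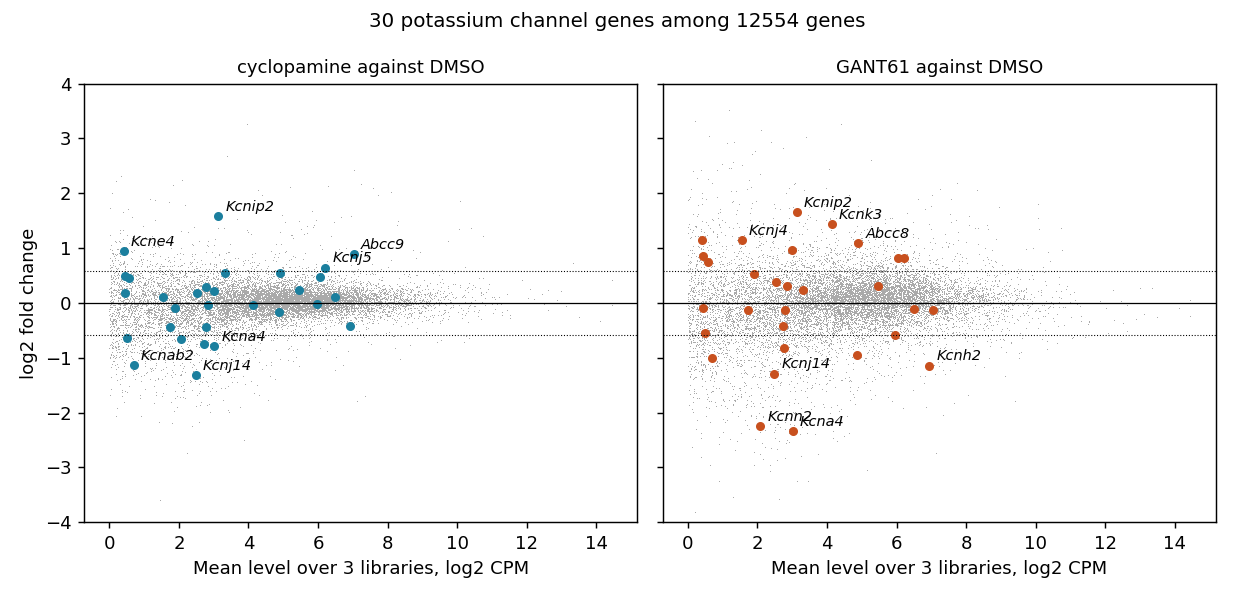
log2 fold change against the mean level in log2 CPM for all 12554 compared genes (grey) with the 30 members in colour, for cyclopamine on the left and GANT61 on the right, with dotted lines at 1.5-fold. Members lie on both sides of 0 in each panel, Kcnip2 is the highest member in both at 1.58 and 1.65, and 2 genes that are not members lie outside the axis for GANT61.

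The genes of the transient outward current, which shapes early repolarization, went different ways. Kcnip2 (chromosome 19, 45791839 to 45816061, GRCm38) encodes KChIP2, the calcium-binding partner that Kv4 channels need for a full current in the mouse ventricle. It was counted 135 times with DMSO, 425 with cyclopamine and 413 with GANT61. Both inhibitor libraries were well above DMSO and close to each other, and the log2 fold change was 1.58 with cyclopamine (counting interval 1.31 to 1.88) and 1.65 with GANT61 (1.38 to 1.96). Kcna4 (chromosome 2, 107290639 to 107298502) encodes Kv1.4, the pore of the slow transient outward current that is prominent in immature heart. It had 505, 304 and 95 counts in the same order, and was lower by size in both, at -0.79 and -2.34, the second with an interval of -2.69 to -2.04. The Kv4 pores themselves were scarce. Kcnd2, which encodes Kv4.2, had 35, 52 and 63 counts. It was at 0.49 (-0.14 to 1.17) in cyclopamine and higher by size in GANT61 at 0.86 (0.28 to 1.54). Between the inhibitors its interval included no difference (0.38, -0.16 to 0.95). Kcnd3, which encodes Kv4.3, had 26, 24 and 33 counts and was under the limit for comparison.

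The promoters of Kcnip2 and Kcna4, whose changes were opposed, and of Kcnj5, which like Kcnip2 was higher by size in both inhibitors, are shown as RefSeq gives them on GRCm38.p6. Each is 300 bases long and reads 5′ to 3′ on the strand of the gene, with the last 50 bases, from the annotated start on, in capitals. Kcnip2 is at chr19:45816014-45816313 on the minus strand, Kcna4 at chr2:107290339-107290638 on the plus strand, where the window ends just before the GENCODE gene start, and Kcnj5 at chr9:32344295-32344594 on the minus strand.
Kcnip2: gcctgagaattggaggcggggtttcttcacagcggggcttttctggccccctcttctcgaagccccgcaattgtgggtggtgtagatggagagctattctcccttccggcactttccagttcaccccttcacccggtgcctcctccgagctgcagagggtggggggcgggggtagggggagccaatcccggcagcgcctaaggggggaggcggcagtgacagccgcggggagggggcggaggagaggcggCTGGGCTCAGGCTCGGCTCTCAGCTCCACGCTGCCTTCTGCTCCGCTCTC
Kcna4: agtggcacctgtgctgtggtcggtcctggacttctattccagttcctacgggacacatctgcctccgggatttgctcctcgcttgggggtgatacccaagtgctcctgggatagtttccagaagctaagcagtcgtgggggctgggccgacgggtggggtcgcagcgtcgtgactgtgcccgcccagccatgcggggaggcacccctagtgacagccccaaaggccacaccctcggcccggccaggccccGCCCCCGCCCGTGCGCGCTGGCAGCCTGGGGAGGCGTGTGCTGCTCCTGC
Kcnj5: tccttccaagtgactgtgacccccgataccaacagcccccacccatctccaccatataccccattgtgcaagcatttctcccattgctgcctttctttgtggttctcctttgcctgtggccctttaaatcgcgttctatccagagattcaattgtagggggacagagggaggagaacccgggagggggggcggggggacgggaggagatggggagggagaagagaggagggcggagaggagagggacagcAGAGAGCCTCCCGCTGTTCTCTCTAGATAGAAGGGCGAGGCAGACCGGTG

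These windows were 67.0%, 67.7% and 58.3% G and C, against a median of 52.7% over all promoters in the table. They were searched on both strands for the GLI consensus GACCACCCA, for the sterol response element TCACCCCAC and for the T-box element AGGTGTGA, letter for letter. None of the 3 windows held any of them. The 20 compared members with a promoter in the table have 29 promoters there. The GLI and T-box letters were in 0 of the 29, and the sterol element was in 1, a promoter of Kcnn1. Among all 32851 promoters the shares were 0.253% for the GLI letters, 0.551% for the sterol element and 1.28% for the T-box letters.

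Silent subunit genes stood near or below DMSO, and the Kv beta genes were split. Kcna5, which encodes Kv1.5, had 1, 0 and 0 counts and could not be compared at this depth. The silent subunit gene Kcng2 had 3315, 3720 and 2956 counts and stood at 0.10 (0.04 to 0.17) and -0.11 (-0.19 to -0.04). A gene model on the opposite strand, D330025C20Rik, covers 9.10% of the exon length of Kcng2 and had 735, 706 and 414 counts, so some of these reads may be shared. Kcnf1, which encodes Kv5.1, another silent subunit, had 312, 193 and 224 counts and was lower by size in cyclopamine at -0.75 (-1.02 to -0.49), with -0.42 (-0.68 to -0.17) in GANT61. The cytoplasmic Kv beta proteins bind Kv1 and related pores. Kcnab1 had 216, 263 and 407 counts and was higher by size in GANT61 at 0.96 (0.72 to 1.21), whereas Kcnab2 had 93, 43 and 44 counts and was lower by size in both, with intervals of -1.73 to -0.64 and -1.58 to -0.50. Kcnab3, with 68, 45 and 44 counts, was lower by size in cyclopamine at -0.63 (-1.23 to -0.09) and stood at -0.56 in GANT61, just short of 1.5-fold.

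Delayed rectifiers end the action potential. Kcnh2 (chromosome 5, 24319589 to 24351604) was counted 6147 times with DMSO, 4768 with cyclopamine and 2676 with GANT61, the deepest counts of any member in DMSO. It was at -0.43 (-0.48 to -0.37) in cyclopamine, short of the size rule, and lower by size in GANT61 at -1.15 (-1.21 to -1.08). Kcnh7, which encodes the related pore ERG3, had 40, 58 and 66 counts. It was at 0.45 (-0.13 to 1.09) in cyclopamine and higher by size in GANT61 at 0.74 (0.19 to 1.38). Between the inhibitors its interval included no difference (0.29, -0.23 to 0.83). Kcnq1 (chromosome 7, 143106362 to 143427042) had 2606, 2677 and 1678 counts, with -0.02 (-0.10 to 0.06) in cyclopamine and -0.58 (-0.67 to -0.50) in GANT61, just short of the size rule, which it passed under both other scalings. Its antisense RNA Kcnq1ot1, a noncoding transcript that silences neighbouring imprinted genes, had 49, 58 and 44 counts and both intervals included no difference. It covers 2.96% of the exon length of Kcnq1. Kcne1 (chromosome 16, 92345982 to 92359468), which encodes the accessory subunit that slows Kcnq1 channels, moved the other way, with 1758, 2554 and 3011 counts. It was at 0.48 (0.39 to 0.57) in cyclopamine and higher by size in GANT61 at 0.83 (0.74 to 0.91). Kcne4, a related subunit that inhibits several Kv pores, rested on 28, 58 and 62 counts and was higher by size in both at 0.94 (0.31 to 1.69) and 1.14 (0.53 to 1.90). Kcnq5, the Kv7.5 pore gene, had 247, 250 and 297 counts and passed the size rule in neither.

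The ATP-sensitive channel joins a Kir6 pore to a sulfonylurea receptor and couples the membrane potential to the energy state of the cell. Its receptor genes were called in different inhibitors. Abcc9 (chromosome 6, 142587862 to 142702315) was counted 3868 times with DMSO, 7477 with cyclopamine and 3393 with GANT61. Cyclopamine stood alone above the other libraries, higher by size at 0.89 (0.83 to 0.95), and GANT61 was at -0.14 (-0.20 to -0.07). Abcc8 (chromosome 7, 46104523 to 46180033), which encodes SUR1, the receptor of the pancreatic beta cell and in mouse also of the atrium, had 717, 1091 and 1477 counts. It was at 0.54 (0.41 to 0.68) in cyclopamine and higher by size in GANT61 at 1.09 (0.96 to 1.22). Kcnj11 had 1431, 1759 and 1703 counts and differed less, at 0.24 (0.13 to 0.34) and 0.30 (0.20 to 0.40). Kcnj8, which encodes Kir6.1, the pore found with SUR2 in pericytes and vascular smooth muscle, had 15, 33 and 3 counts and was under the limit for comparison, with ratios to DMSO of 0.98 (0.15 to 2.06) and -1.74 (-4.70 to -0.45) on the log2 scale.

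The other inward rectifiers include the acetylcholine-gated and the Kir2 channels. Kcnj5 (chromosome 9, 32314707 to 32344350) was counted 1890 times with DMSO, 3079 with cyclopamine and 3207 with GANT61. Both inhibitor libraries were higher by size, at 0.64 (0.56 to 0.73) and 0.81 (0.73 to 0.90). Its partner Kcnj3, which encodes GIRK1, had 243, 310 and 213 counts and passed the size rule in neither, at 0.29 (0.04 to 0.54) and -0.14 (-0.41 to 0.13). A gene model on the opposite strand, Gm26794, covers 31.1% of the exon length of Kcnj3. No gene of that name was among those counted, so its own counts cannot be given. Some reads may be shared, which would also touch the ratio of Kcnj5 to Kcnj3 below. Kcnj2, which encodes Kir2.1, the main pore of the inward rectifier current of the mouse ventricle, had 328, 252 and 178 counts. It was at -0.44 (-0.68 to -0.20) in cyclopamine and lower by size in GANT61 at -0.82 (-1.10 to -0.56). Kcnj12, which encodes Kir2.2, had 304, 462 and 344 counts, with 0.54 (0.33 to 0.76) and 0.23 (0.00 to 0.46), neither past the rule. Kcnj4, which encodes Kir2.3, had 75, 85 and 162 counts and was higher by size in GANT61 alone, at 1.14 (0.76 to 1.58). Kcnj14 (chromosome 7, 45816460 to 45824782), which encodes Kir2.4, had 343, 142 and 134 counts and was lower by size in both, at -1.32 (-1.63 to -1.05) and -1.29 (-1.60 to -1.01). Of its 50-base sequence windows 31.2% also occur in the processed pseudogene Gm5522, which had 0 counts in each library, so the level of Kcnj14 is uncertain. Kcnj15, which encodes Kir4.2, had 122, 119 and 170 counts and passed the rule in neither.

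Background and calcium-activated channel genes included members called in GANT61 alone and in both inhibitors. Kcnk3 (chromosome 5, 30588170 to 30625271), which encodes the acid-sensitive background channel TASK-1, was counted 416 times with DMSO, 423 with cyclopamine and 1087 with GANT61. GANT61 stood alone, higher by size at 1.43 (1.27 to 1.60), and cyclopamine was at -0.04 (-0.24 to 0.16). A transcript on the opposite strand, Gm9899, covers 5.76% of its exon length and had 45, 49 and 101 counts. Kcnk2, which encodes the stretch-activated TREK-1, had 139, 106 and 122 counts and passed the rule in neither. Kcnk1, which encodes TWIK-1, had 1, 0 and 2 counts and could not be compared. Kcnn2 (chromosome 18, 45268860 to 45686024), which encodes SK2, had 254, 167 and 50 counts and was lower by size in both, at -0.66 (-0.96 to -0.38) and -2.25 (-2.76 to -1.85). Kcnn1, which encodes SK1, had 186, 220 and 234 counts and passed the rule in neither, at 0.18 (-0.11 to 0.47) and 0.38 (0.10 to 0.67).

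The 70 members under the limit had at most 41 counts in any library, and 41 of them had a count. By size 4 of these were higher and 3 lower with cyclopamine, whereas with GANT61 the numbers were 2 and 5. Of the 9896 genes with a count under the limit 3.98% were higher and 6.3% lower with cyclopamine, and 5.01% and 8.55% with GANT61. Kcnmb1, the beta 1 subunit of the large conductance channel and a gene of vascular smooth muscle, had 34, 2 and 5 counts, with ratios to DMSO on the log2 scale of -3.20 (-7.25 to -2.19) and -2.33 (-4.43 to -1.35). Its pore gene Kcnma1 had 1, 0 and 1 counts. Of the 7 smooth muscle and pericyte markers 5 were compared, with 0 higher and 1 lower by size with cyclopamine and 1 each way with GANT61. Cnn1 was the lower one (10724, 3184 and 1532 counts) and Notch3 the higher (71, 107 and 162). Pdgfrb, Cspg4 and Tagln passed the rule with neither inhibitor, and Myh11, under the limit, had 21, 25 and 18 counts. The part of these cells in the Kcnmb1 counts was not tested.

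GANT61 was then compared with cyclopamine directly. By size GANT61 held 4 of the 30 members higher and 5 lower, 13.3% and 16.7%, against 4.86% and 6.81% of all genes. The higher members were Kcnk3 at 1.47 (1.31 to 1.64), Kcnj4 at 1.03 (0.66 to 1.44), Kcnab1 at 0.74 (0.52 to 0.97) and Kcnj15 at 0.62 (0.28 to 0.98). The lower members included Kcnn2 at -1.59 (-2.11 to -1.16), Kcna4 at -1.55 (-1.91 to -1.23), Abcc9 at -1.03 (-1.09 to -0.97) and Kcnh2 at -0.72 (-0.79 to -0.65). Kcnip2 at 0.07 (-0.13 to 0.27) and Kcnj14 at 0.03 (-0.32 to 0.38) had intervals that included no difference between the inhibitors.

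Ratios between subunits that are partners or related members of a family need no scaling between libraries. They were taken per exon length for pairs chosen after the counts had been seen. Abcc9 was 5.21 times Abcc8 in DMSO (binomial interval 4.81 to 5.65), 6.62 times in cyclopamine (6.21 to 7.06) and 2.22 times in GANT61 (2.09 to 2.36), so the SUR2 to SUR1 ratio moved in opposite directions. Taking the longest transcript as length gave 3.51, 4.46 and 1.49, outside these intervals but in the same order of libraries. Kcne1 was 0.859 times Kcnq1 in DMSO (0.808 to 0.913), 1.21 times in cyclopamine (1.15 to 1.28) and 2.29 times in GANT61 (2.15 to 2.43), and the intervals did not meet. With the longest transcript as length these were 0.644, 0.910 and 1.71, so on which side of 1 the cyclopamine ratio lies depends on the length used, while the order of the libraries does not. Kcnj5 was 8.66 times Kcnj3 in DMSO (7.57 to 9.94), 11.1 times in cyclopamine (9.83 to 12.5) and 16.8 times in GANT61 (14.6 to 19.3), where the intervals of DMSO and cyclopamine overlapped slightly. Kcnj12 was 1.83 times Kcnj2 in DMSO (1.56 to 2.15), 3.63 times in cyclopamine (3.11 to 4.25) and 3.83 times in GANT61 (3.18 to 4.61), above DMSO in both inhibitors, whose own intervals overlapped. Kcnip2 was 5.72 times Kcnd2 in DMSO (3.92 to 8.55), 12.1 times in cyclopamine (9.07 to 16.5) and 9.72 times in GANT61 (7.44 to 12.9), and only the interval of cyclopamine lay clear of DMSO. Kcnj11 was 66.1 times Kcnj8 in DMSO (39.9 to 118), 36.9 times in cyclopamine (26.2 to 53.8) and 393 times in GANT61 (134 to 1909), the last on 3 counts of Kcnj8.

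**Figure D4:**
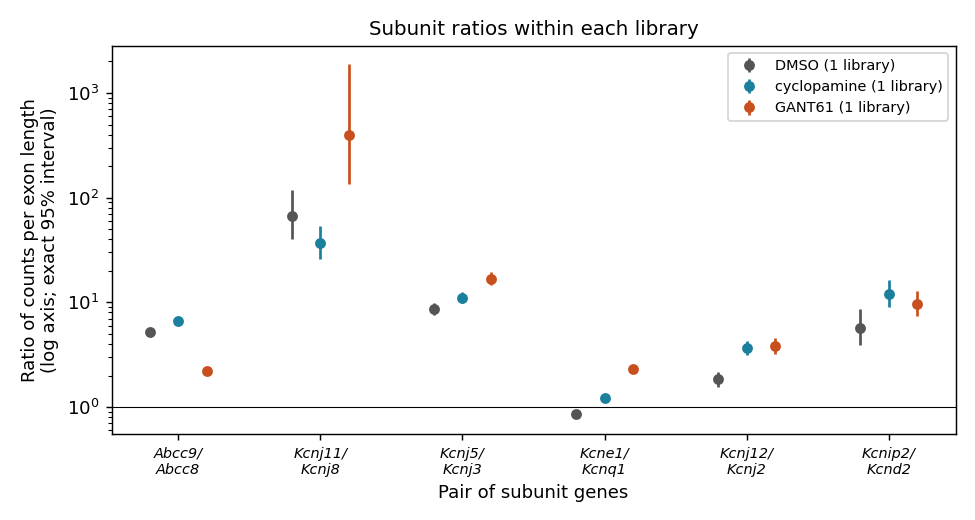
Ratio of counts per exon length for 6 pairs of subunit genes in each library (log axis), grey for DMSO, blue for cyclopamine and orange for GANT61, with exact 95% binomial intervals and a line at 1. The ratio of Abcc9 to Abcc8 is lowest in GANT61 at 2.22, and that of Kcne1 to Kcnq1 is highest there at 2.29.

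A test was possible only with both inhibitor libraries as 1 arm against DMSO, where the spread between the inhibitors is the error. With edgeR's quasi-likelihood test and Benjamini-Hochberg adjustment 0 of the 30 members and 0% of all genes passed an adjusted p of 0.05 in either direction, while 6 members and 825 genes had an unadjusted p under 0.05. Kcnip2, higher in both inhibitor libraries, came nearest by edgeR, with a log2 fold change of 1.63 and an adjusted p of 0.157. DESeq2's Wald test called Kcnip2 alone among the members, with a log2 fold change of 1.62 (SE 0.42) and an adjusted p of 0.0157, against 0.509% of genes called higher and 0.596% lower by that test. Limma-voom called 0 members and 0 genes, with 9 members and 912 genes at an unadjusted p under 0.05. Kcnj14, lower in both inhibitor libraries, had edgeR log2 fold change -1.32 and adjusted p 0.269, and Kcnj5, higher in both, had 0.73 and 0.370.

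Genes that work around the channels were read from lists chosen with earlier results of these data known. By size 2.91% of all genes were higher and 5.42% lower with cyclopamine, and 7.77% and 11.1% with GANT61. The sodium-potassium pump builds the potassium gradient that the channels use. Of 15 pump and FXYD regulator genes 8 were compared, with 0 called by size with cyclopamine. With GANT61 0 were called higher and 4 lower, or 50% (median log2 fold change -0.06 with cyclopamine and -0.53 with GANT61). Among the lower genes in GANT61, the beta subunit gene Atp1b2 stood at -1.91 (-2.50 to -1.45), and the regulator genes Fxyd6 at -1.15 and Fxyd5 at -0.62. On the route from muscarinic and adenosine receptors to GIRK channels 22 of 25 genes were compared. With cyclopamine 0 were called higher and 2 lower (9.09%), then with GANT61 2 higher (9.09%) and 5 lower (22.7%). Their medians were -0.03 and -0.13. Rgs2, which speeds the shut-off of G proteins, had 266, 110 and 37 counts and was lower by size in both, at -1.32 (-1.67 to -1.01) and -2.73 (-3.33 to -2.29). Gng11 was also lower in both at -0.68 and -0.70, Kctd12 was lower in GANT61 at -0.76 and Rgs7 higher there at 0.87, and the receptor gene Chrm2 stood at -0.12 and -0.57.

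Of 26 partner, anchoring and trafficking genes 20 were compared, with 0 called by size with cyclopamine (medians -0.03 and, with GANT61, -0.07). With GANT61 0 were called higher and 3 lower, or 15% against 11.1% of all genes. These were Fhl2, a LIM protein known to bind MinK in yeast and cultured cells, at -1.36 (-1.39 to -1.33), Nos1ap at -0.73 (-1.39 to -0.14) and Nedd4l, a ubiquitin ligase that acts on Kcnq1 channels, at -0.64 (-0.71 to -0.57). The Kv4 partner genes Dpp6 and Dpp10 had at most 3 counts. Of 13 cation-chloride cotransport genes 10 were compared, and Slc12a8 alone (10%) was lower by size, at -0.75 and -0.68 (medians 0.03 and 0.14). Of 25 transcription factors of the ventricular repolarization gradient and of channel genes 24 were compared. With cyclopamine 0 were called higher and 1 lower (4.17%), then with GANT61 1 higher (4.17%) and 4 lower (16.7%). Their medians were 0.00 and -0.12. Tbx3, a factor of the conduction system, was lower by size in both at -0.93 (-1.23 to -0.65) and -1.15 (-1.48 to -0.85). Etv1, a factor of fast conduction in the mouse heart, had 403, 282 and 84 counts and was lower by size in GANT61 at -2.19 (-2.57 to -1.87). Tbx20 at -0.86 and Hopx at -0.67 were lower there too. Klf15, which drives Kcnip2 in the adult mouse heart, had 214, 256 and 397 counts and was higher by size in GANT61 at 0.94 (0.70 to 1.19), with 0.19 (-0.07 to 0.47) in cyclopamine. Irx5, which represses Kcnd2 in the mouse ventricle, had 1043, 1122 and 684 counts, at 0.04 and -0.56 against DMSO. It was lower by size in GANT61 against cyclopamine at -0.60 (-0.74 to -0.46), as were Irx3 at -0.74 and Irx4 at -0.66. In that comparison 2 of the 24 factors were higher and 5 lower, 8.33% and 20.8%, against 4.86% and 6.81% of all genes. Any part of Irx5 in the Kcnd2 counts was not tested.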

How the data were processed

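mRNA of neonatal mouse ventricular cardiomyocytes was sequenced from stranded libraries, per the labels' protocols. The tools HISAT2 2.1.0, featureCounts, Trimmomatic 0.33 and FastQC and the build GRCm38 are named, per the submitters' processing notes, without their roles. Annotation and strand setting: not given in the sources used here. For this reason antisense and near-identical genes may share reads. The deposited values are raw read counts per gene, 1 column per group, per the file headers, with totals from 35461530 to 38966515. The members and lists were chosen with earlier results of these data known.

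The design of 2 samples per group had no counterpart in the columns, so the size rule described in the report stood in for a test, with exact conditional binomial intervals. edgeR 4.0.16 (quasi-likelihood, robust), limma 3.58.1 and DESeq2 1.42.0 were run across all 12554 compared genes, with both inhibitors as 1 arm. TPM used exon unions of GENCODE mouse release 21 for 55141 genes. Members were named when they had a mean of at least 5 CPM, passed the size rule against DMSO, or were on a list of genes of known cardiac currents, and at most 4 of each other list by size of change. Kcnk2, Kcnk6, Kcnj15, Kcnq1ot1, Hopx, Kcnmb1, Kcnma1, the markers named, Chrm2, Irx3, Irx4, Irx5, Dpp6 and Dpp10 were named after their values were seen. The values of some genes, 1 compared member among them, are not reported here, though all counts include them.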

Additional observations from a re-analysis of the deposited data

How the results depend on the processing

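Under DESeq2 size factors and under library size only the 6 counts of members were those of the report, except that 8 and not 7 were lower in GANT61 against DMSO, Kcnq1 being the addition. The counts below are given as higher and lower members, with the shares of all genes under the same setting in the same order. Without a filter they were 8 and 9 in cyclopamine, 12 and 12 in GANT61, and 7 and 10 in GANT61 against cyclopamine, of 71 members, beside 3.38%, 5.81%, 6.56%, 9.95%, 4.98% and 6.62% of 22450 genes. With filterByExpr they were 8 and 9, 12 and 12, and 6 and 10 of 45 members, beside 4.09%, 7.27%, 8.6%, 13.1%, 6.36% and 8.52% of 15576 genes. With a mean of at least 5 CPM they were 3 and 3, 6 and 5, and 2 and 4 of 20 members, beside 1.96%, 2.76%, 6.74%, 7.88%, 3.22% and 4.46% of 10141 genes. At 1.2-fold they were 8 and 9, 14 and 10, and 8 and 9 of 30 members, beside 10.8%, 13.9%, 22.1%, 22.6%, 17.5% and 17.3% of 12554 genes. At 2-fold they were 1 and 2, 5 and 4, and 2 and 3 of 30, beside 0.852%, 1.93%, 2.64%, 4.68%, 1.21% and 1.98%. For both inhibitors against DMSO DESeq2's Wald test called 1 member where the other settings called 0; the smallest adjusted p of a member ranged from 0.0157 to 0.218, and DESeq2 gave no adjusted p for 6 members. With the longest transcript as length 62 of 90 levels of the 30 members left their counting interval, by factors of 0.784 to 1.59, and 2 members, Kcnn2 and Kcnab1, moved by over 1.5 times. No paired analysis was possible because the count columns carry no replicate number. For the same reason leaving out a replicate was not run, and leaving out 1 inhibitor library of the 2-arm test gives the pairwise values, with no test. Depth limits the members under 1 CPM, where a few counts set the ratio.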

Other observations

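The authors' deposited tables list 6612 genes as higher and 6461 as lower in the inhibitors at 1.2-fold. In these tables the mean of both inhibitor counts is at least 1.2 times the DMSO count for every gene listed as higher with a DMSO count, and at most 0.833 times for those listed as lower. Over the whole series 22450 genes had a count in some library, and so did 71 of the 100 members. Among all 100 members the authors' lists hold 33 as higher and 27 as lower. Of the 30 compared members they hold 14 as higher and 10 as lower. The share of the 12554 compared genes on these lists is not given here. Hence the counts for compared members do not show whether members differ from other genes. Those listed as lower include Kcnk2, which stood at -0.45 (-0.83 to -0.08) with cyclopamine and -0.14 (-0.50 to 0.22) with GANT61. In the authors' deposited table of higher genes, 2330 have 0 counts in DMSO.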
